A study of Mus musculus with 8 samples.

Results

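The genes described here are 10 genes of the glutathione system in mouse morulae: the glutathione transferase genes Gsta4, Gstm1, Gstp1, Gsto1, Mgst1 and Mgst3, the glutathione peroxidase genes Gpx1 and Gpx4, and the genes of glutathione reductase (Gsr) and glutathione synthetase (Gss). They were chosen by gene symbol, and all 10 were found among the 18257 genes of the deposited table. Wild-type embryos were cultured from the 4-cell stage in KSOM, an embryo culture medium, either with 2 µM A485, which blocks acetylation by p300 and CBP, a pair of transcriptional coactivators, or with 0.1% DMSO as control. Each of 4 A485 and 4 control libraries was made from polyadenylated RNA of 3 pooled embryos after cDNA preamplification. The samples are labelled as morulae, whereas the culture protocol runs on to the blastocyst stage. No label tells whether the pools differ in litter or day of culture, so p-values measure the spread between these pools.

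Glutathione is a cysteine-containing tripeptide that keeps the cell's interior reduced. Glutathione transferases join it to electrophiles, glutathione peroxidases spend it to reduce hydrogen peroxide and lipid peroxides, glutathione reductase regenerates it with NADPH, and glutathione synthetase carries out the last step of its synthesis. Many of these genes are known targets of the transcription factor NRF2, which binds the antioxidant response element together with small Maf proteins. Early embryos are known to depend on glutathione that the oocyte stored.

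Promoter windows are shown for the members Gstm1, Gstp1 and Mgst1, and beside them for Gstp2, the close copy of Gstp1, and for Gstm5, a mu gene that holds both motifs searched. Windows of 250 bases before to 50 after an annotated start site were taken from RefSeq on GRCm38.p6, where 8 of the 10 members had one. Each was searched on both strands for TGACNNNGC, taken here as the core of the antioxidant response element, and for TGANTCA, the AP-1 site. The patterns can overlap in 1 site, which then counts for both. Capitals mark these matches, and sequences run 5′ to 3′ along the gene's strand.
Gstp1 (chr19:4037863-4038162, minus strand): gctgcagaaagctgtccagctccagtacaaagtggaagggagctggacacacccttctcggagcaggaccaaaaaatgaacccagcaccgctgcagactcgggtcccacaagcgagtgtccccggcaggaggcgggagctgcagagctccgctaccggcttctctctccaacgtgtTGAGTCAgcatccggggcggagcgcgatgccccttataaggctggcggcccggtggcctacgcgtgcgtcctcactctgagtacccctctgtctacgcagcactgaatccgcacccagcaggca
Gstp2 (chr19:4042172-4042471, minus strand): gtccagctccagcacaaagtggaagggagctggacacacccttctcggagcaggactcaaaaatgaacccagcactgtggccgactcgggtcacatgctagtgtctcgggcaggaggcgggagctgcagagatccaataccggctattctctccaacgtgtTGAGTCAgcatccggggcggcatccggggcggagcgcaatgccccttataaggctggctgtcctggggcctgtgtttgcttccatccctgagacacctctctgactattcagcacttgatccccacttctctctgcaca
Mgst1 (chr6:138140277-138140576, plus strand): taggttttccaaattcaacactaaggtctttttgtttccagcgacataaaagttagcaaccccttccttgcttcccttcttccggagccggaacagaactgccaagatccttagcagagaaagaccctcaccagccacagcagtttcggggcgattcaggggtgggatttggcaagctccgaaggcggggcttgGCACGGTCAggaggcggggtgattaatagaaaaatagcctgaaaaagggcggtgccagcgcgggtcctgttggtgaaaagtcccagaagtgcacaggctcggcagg
Gstm1 (chr3:108017924-108018223, minus strand): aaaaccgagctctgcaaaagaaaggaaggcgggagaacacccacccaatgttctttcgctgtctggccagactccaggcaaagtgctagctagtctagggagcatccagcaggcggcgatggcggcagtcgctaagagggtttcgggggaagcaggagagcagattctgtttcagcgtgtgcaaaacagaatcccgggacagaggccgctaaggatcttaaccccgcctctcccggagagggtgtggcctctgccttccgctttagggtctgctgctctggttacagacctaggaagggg
Gstm5 (chr3:107895604-107895903, plus strand): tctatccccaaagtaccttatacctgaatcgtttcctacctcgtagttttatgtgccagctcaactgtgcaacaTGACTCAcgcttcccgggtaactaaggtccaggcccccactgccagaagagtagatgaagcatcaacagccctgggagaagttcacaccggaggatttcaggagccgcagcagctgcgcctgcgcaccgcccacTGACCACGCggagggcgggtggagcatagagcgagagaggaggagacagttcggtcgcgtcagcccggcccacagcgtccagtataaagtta
In Gstp1 the TGANTCA match begins at position -74 from the start site and in Gstp2, its neighbour, at position -89. In both windows GC follows this match, so the stretch departs from TGACNNNGC only by a G in place of the C. It was not counted as TGACNNNGC. The Gstp1 and Gstp2 windows were identical at 246 of 281 aligned bases (87.5%). Mgst1 held the only TGACNNNGC match among the 8 members, at position -56 and on the opposite strand. The Gstm1 window held neither motif, whereas Gstm5 of the same class held TGANTCA at -176 and TGACNNNGC at -42.

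How often each motif occurred was set beside all tested genes. TGACNNNGC was found in 4 of 31 transferase and peroxidase genes (12.9%: Mgst1, Gsta3, Gstm5 and Gstm7), against 16.7% of 10413 tested genes with a window. TGANTCA was found in 4 of the 31 (Gstp1, Gstp2, Gstm5 and Mgst2), against 5.97% of the tested genes. Over all windows of the table, tested or not, 12.4% of 32851 held TGACNNNGC and 7.81% held TGANTCA. The GC box GGGCGG was found in 7 of the 8 members and in 17 of the 31 transferase and peroxidase genes (54.8%), against 66.8% of the tested genes. A match is a string of letters and no measured site, and enhancers outside the windows were not searched.

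Total estimated counts were 23641781 to 25677701 per library. Genes with too few counts were left out, and of the 12936 tested 54.7% passed an adjusted p of 0.05, 29.7% higher and 25% lower in A485, and every count below is to be read against these shares. Among the calls 54.2% were higher, against 68.2% when libraries were scaled by total counts, where the median over all genes was 0.37 on the log2 scale, against 0.09 with TMM scaling (a factor for composition). No spike-in was named, so a change in RNA per embryo could not be seen, and fewer cells of a type cannot be told apart from less RNA per cell. All 8 morula markers were detected in both groups and fell in A485, with summed levels of 1012 to 4464 CPM (counts scaled to a common library size, in parts per 1e+06) in A485 and 8255 to 9527 CPM in control. Of 4 blood markers Hba-a1 alone was tested and rose, and the summed level of the 4 was 101 to 329 CPM in A485 and 7.71 to 17.5 CPM in control, with Hbb-bs, Ptprc and Alas2 at no more than 0.208 CPM in any library. Of 8 cumulus cell markers Inha alone was tested and rose, and the sum was 1.03 to 3.30 CPM in A485 and 0 to 0.176 CPM in control. Inha had 0 counts in every control library and entered the test through its A485 libraries alone, which fixed the direction of its call. Of 8 oocyte markers 6 were tested, of which Padi6 fell and 0 rose, with a summed level of 22.9 to 37.5 CPM in A485 and 49.0 to 56.5 CPM in control. The sum of 5 fibroblast markers was 0.406 to 2.69 CPM in A485 and 0.632 to 2.92 CPM in control, and that of 4 sperm markers 0.256 to 0.739 CPM in A485 and 0.0451 to 0.572 CPM in control. The part of these differences in the results below was not tested.

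Of the 10 members, 6 rose with A485, 0 fell, 3 did not pass and 1, Mgst1, was too low to be tested. Among the tested members Gstm1 had the largest fold change, 25.3-fold, followed by Gstp1 (3.75-fold), Mgst3 (3.25-fold), Gsr (2.30-fold), Gpx4 (1.78-fold) and Gsta4 (1.72-fold). Gsto1, Gpx1 and Gss did not pass. The median log2 fold change of the 9 tested members was 0.83, against 0.09 over all genes tested. At an unadjusted p under 0.05 the count lower was also 0, and DESeq2 likewise called 6 higher and 0 lower.

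**Figure D1:**
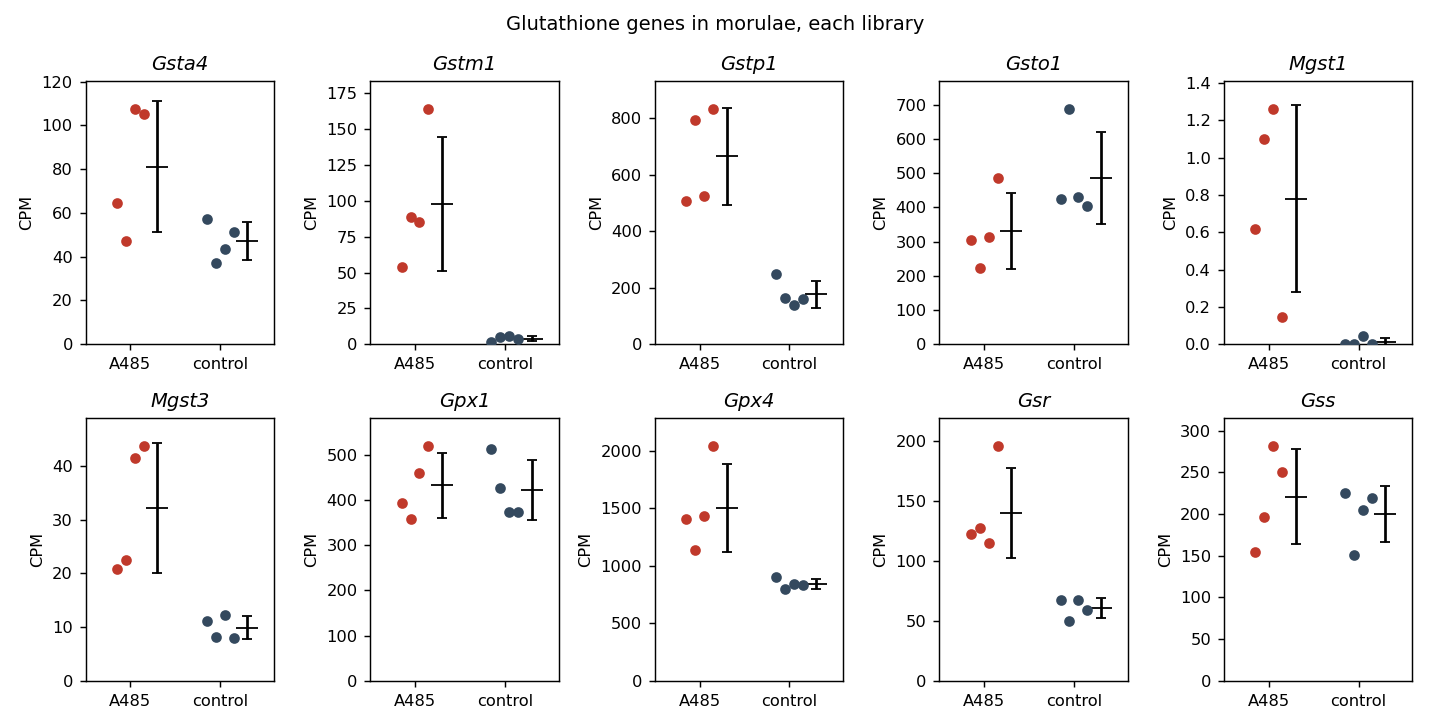
CPM with TMM-scaled library sizes of the 10 members (vertical axes, each from 0) in 4 A485 and 4 control libraries (points), with mean and SD as bars. The groups do not overlap for Gstm1, Gstp1, Mgst1, Mgst3, Gpx4 and Gsr, and overlap for Gsta4, Gsto1, Gpx1 and Gss.

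Among the cytosolic transferases, Gstm1 (chromosome 3, 108012250 to 108017973, GRCm38.p6) encodes a mu-class enzyme that conjugates glutathione to electrophiles such as epoxides. It had 54.0, 88.8, 85.0 and 164 CPM in A485 libraries 1 to 4, against 1.54, 4.69, 5.54 and 3.67 CPM in control libraries 1 to 4. Every A485 library lay above every control library, as was the case, in that direction, for 26.9% of all genes tested. The log2 fold change was 4.66 ± 0.46 (SE), with an adjusted p of 5.26e-05 by edgeR. In GENCODE transcripts 23.1% of the 50-base stretches of Gstm1 also occurred in another gene, mostly the processed pseudogene Gstm2-ps1 and Gstm3, so part of its count is uncertain.

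Gstp1 (chromosome 19, 4035411 to 4037912) encodes the pi-class transferase, an abundant enzyme of many epithelia. It had 506, 794, 525 and 831 CPM in A485 libraries 1 to 4 and 247, 163, 137 and 161 CPM in control libraries 1 to 4. The lowest A485 library was above the highest control library, and the log2 fold change was 1.91 ± 0.23 (SE), with an adjusted p of 0.000126 by edgeR. Of its 50-base stretches 62.3% were shared with another gene, mainly Gstp2, and its estimated counts were not whole, so reads were divided between these copies. Gstp2 also rose, with 134 ± 46.4 CPM in A485 and 71.2 ± 19.3 CPM in control (SD, n = 4 per group) and a log2 fold change of 0.92 ± 0.26 (SE), with an adjusted p of 0.0124 by edgeR. The Gstp2 groups overlapped, with 93.3 CPM in A485 replicate 1 and 94.8 CPM in control replicate 1. The Gstp2 call was lost without control replicate 3 (adjusted p = 0.0514). Gstp1 made up 81.7% ± 3.35 of the TPM (transcript abundance corrected for length) of the 3 pi genes in A485 and 70.9% ± 2.84 in control (SD, n = 4 per group).

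Gsta4 (chromosome 9, 78191966 to 78209349) encodes an alpha-class enzyme with high activity toward 4-hydroxynonenal, a product of lipid peroxidation. It had 64.8, 47.4, 107 and 105 CPM in A485 libraries 1 to 4, against 57.1, 37.2, 43.5 and 51.5 CPM in control libraries 1 to 4. A485 libraries 3 and 4 were the highest, library 1 was just above all controls, and library 2 lay within the range of the controls. The difference was 0.78 ± 0.26 on the log2 scale (SE), with an adjusted p of 0.0281 by edgeR. The call was lost without A485 replicate 3 or 4 or without control replicate 2, 3 or 4 (log2 fold changes of 0.61 to 0.80, edgeR adjusted p of 0.0538 to 0.0788). Without both A485 replicates 3 and 4 the log2 fold change was 0.24 (edgeR adjusted p = 0.327).

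Gsto1 (chromosome 19, 47854973 to 47864790) encodes an omega-class enzyme, which acts as a thioltransferase and dehydroascorbate reductase. It had 303, 223, 313 and 488 CPM in A485 libraries 1 to 4 and 424, 687, 431 and 405 CPM in control libraries 1 to 4. The groups overlapped through A485 replicate 4, and control replicate 2 stood above the rest. On the log2 scale the difference was -0.55 ± 0.25 (SE), with an adjusted p of 0.0858 by edgeR. Without A485 replicate 4 it was -0.80 and passed (adjusted p = 0.0136), and without control replicate 2 it was -0.33 (adjusted p = 0.255).

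The microsomal transferases are membrane proteins unrelated in sequence to the cytosolic enzymes. Mgst3 (chromosome 1, 167371966 to 167393841) had 20.9, 22.5, 41.5 and 43.7 CPM in A485 libraries 1 to 4, against 11.1, 8.26, 12.3 and 7.93 CPM in control libraries 1 to 4. All A485 libraries were above all controls, with libraries 3 and 4 highest. Its log2 fold change was 1.70 ± 0.28 (SE), with an adjusted p of 0.000664 by edgeR, and 1.13 without A485 replicates 3 and 4 (adjusted p = 0.00177).

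Mgst1 (chromosome 6, 138140527 to 138156755), which encodes an enzyme of the endoplasmic reticulum and outer mitochondrial membrane, was close to absent from control. It had 15, 30, 37 and 4 estimated counts in A485 libraries 1 to 4 and 0, 0, 1 and 0 in control libraries 1 to 4. The summed counts were 86 in A485 and 1 in control, so that, set against TMM-scaled library sizes, A485 was 71.9 times control, with an exact 95% counting interval of 12.6 to 2872, which covers counting error only. It did not reach the filter on low counts. Without that filter it passed, with a log2 fold change of 5.57 ± 1.15 (SE), with an adjusted p of 0.0019 by edgeR, and in the authors' deposited table its log2 fold change was 5.83 with a q-value of 8.53e-05.

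Of the peroxidases, Gpx4 (chromosome 10, 80047166 to 80056439) encodes the selenoenzyme that reduces phospholipid hydroperoxides within membranes and so restrains ferroptosis, and mouse embryos that lack it die during gestation. It had 1406, 1142, 1434 and 2043 CPM in A485 libraries 1 to 4, against 907, 802, 838 and 833 CPM in control libraries 1 to 4. The groups did not overlap, and control libraries lay close together. The log2 fold change was 0.83 ± 0.17 (SE), with an adjusted p of 0.0025 by edgeR. Of its 50-base stretches 61.7% also occurred in another gene, chiefly Gpx4-ps2, a pseudogene transcript, so reads of that copy could be counted as Gpx4.

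Gpx1 (chromosome 9, 108339080 to 108340342) encodes the cytosolic and mitochondrial selenoenzyme that reduces hydrogen peroxide. It had 394, 357, 458 and 519 CPM in A485 libraries 1 to 4 and 512, 427, 373 and 373 CPM in control libraries 1 to 4. The groups overlapped, with a log2 fold change of 0.04 ± 0.16 (SE), with an adjusted p of 0.863 by edgeR. No 50-base stretch of its transcript was shared with another gene.

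The ratio of Gpx4 to Gpx1 was higher in every A485 library than in any control library. In TPM it was 5.03, 4.51, 4.41 and 5.57 in A485 libraries 1 to 4, against 2.48, 2.61, 3.14 and 3.12 in control libraries 1 to 4. The difference of its mean logarithm was 0.78 on the log2 scale, A485 minus control. The exact two-sided permutation p was 0.0286 over 70 assignments, the smallest that 4 against 4 allows. The ratio restates the rise of Gpx4 beside Gpx1, which did not pass, and is no separate evidence. Reads of the Gpx4 pseudogene could enter it too. Gpx4 made up 73.8% ± 1.93 of the TPM of the 8 peroxidase genes in A485 and 71.7% ± 2.14 in control, while Gpx1 made up 15.2% ± 1.31 in A485 and 25.5% ± 2.37 in control (SD, n = 4 per group).

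Gsr (chromosome 8, 33653238 to 33698162) encodes the reductase that returns oxidised glutathione to its reduced form. It had 123, 127, 115 and 196 CPM in A485 libraries 1 to 4, against 67.1, 50.02, 67.5 and 58.8 CPM in control libraries 1 to 4. The groups did not overlap, with A485 replicate 4 above the other A485 libraries. The log2 fold change was 1.202 ± 0.19 (SE), with an adjusted p of 0.000501 by edgeR.

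Gss (chromosome 2, 155563181 to 155592810), which encodes glutathione synthetase, had 154, 197, 282 and 251 CPM in A485 libraries 1 to 4 and 225, 151, 205 and 219 CPM in control libraries 1 to 4. A485 libraries 1 and 2 lay within the range of the controls and libraries 3 and 4 above it. The log2 fold change was 0.14 ± 0.20 (SE), with an adjusted p of 0.564 by edgeR.

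Levels of different members can be compared only per length, for which TPM was used within each group; between groups TPM shifts with composition, by a median of 0.40 on the log2 scale over 12891 genes. In A485 the order of mean TPM was Gpx4 (2902), Gstp1 (1418), Gpx1 (594), Gsto1 (390), Gss (151), Gsta4 (125), Gstm1 (104), Gsr (65.5), Mgst3 (42.1) and Mgst1 (1.25). In control the order was Gpx4 (1298), Gpx1 (462), Gsto1 (461), Gstp1 (299.8), Gss (108), Gsta4 (57.9), Gsr (23.0), Mgst3 (10.3), Gstm1 (3.31) and Mgst1 (0.0125). Gstp1 held place 2 in A485 and place 4 in control, and Gstm1 place 7 in A485 and place 9 in control. Gpx4 ranked 58 among all genes in A485 and 151 in control. Libraries of neighbours overlapped in A485 for Gpx1 and Gsto1 and along Gss, Gsta4, Gstm1, Gsr and Mgst3, and in control for Gpx1, Gsto1 and Gstp1.

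The members belong to larger families, and the peroxidase genes and the genes of the alpha, mu, pi, theta, kappa, omega, zeta and microsomal transferase classes were set beside them. Gstcd and Hpgds, which are in none of these classes here, are given apart below. Of 23 transferase genes tested 19 rose and 0 fell, and of 7 peroxidase genes 5 rose and 1 fell, against 29.7% higher and 25% lower over all genes. Gstt1, Gsta2 and Gpx8 had at most 0.371 CPM in any control library. Their A485 libraries alone brought them past the filter on low counts, so their higher calls were favoured by it. Gstt3, Gstm3, Gstm5, Mgst2 and Gstk1 each had a control library at no more than 0.226 CPM. The control libraries of these genes would not have passed the filter on their own, so their higher calls were favoured too. The median log2 fold change was 2.32 for the tested transferases and 1.87 for the tested peroxidases. DESeq2 gave the same counts, total-count scaling gave 20 and 0 transferases, and without A485 replicates 3 and 4 there were 17 transferases higher and 1 lower.

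**Figure D2:**
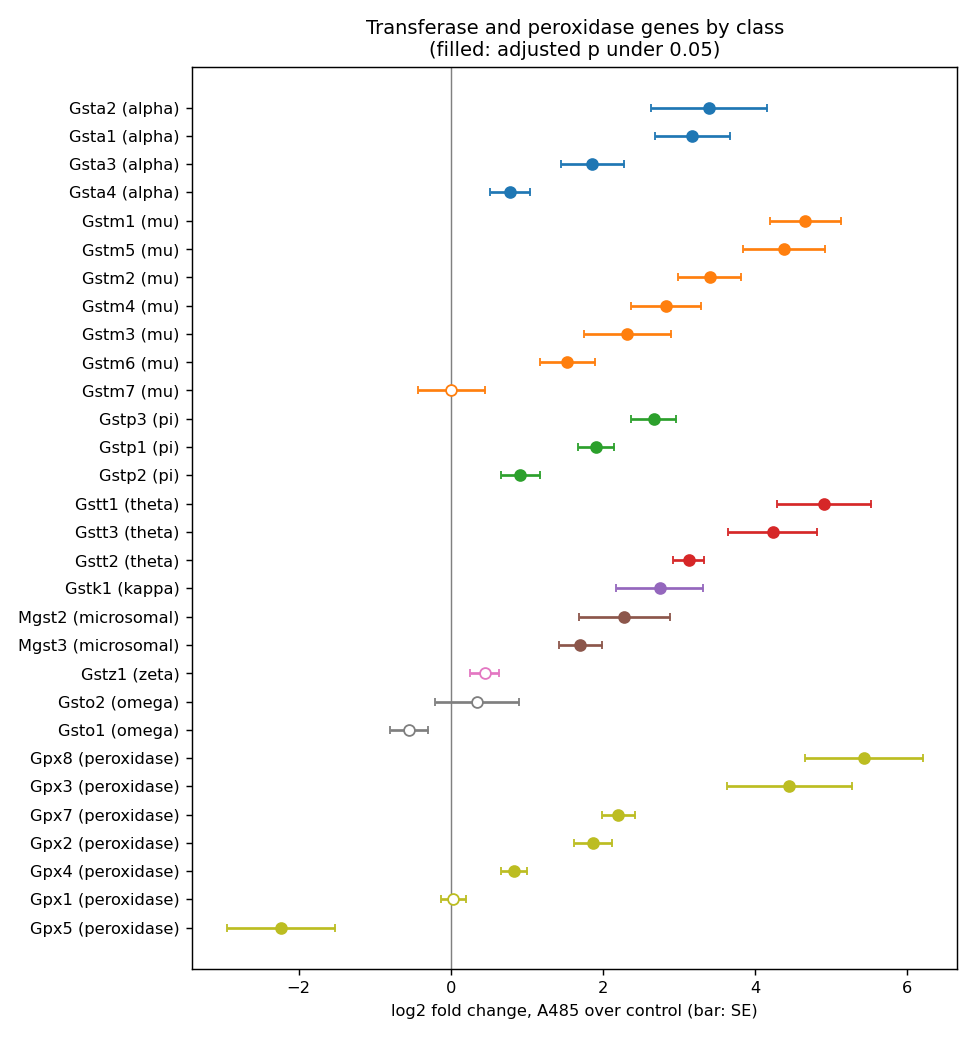
Log2 fold change of A485 over control (horizontal axis) with its SE for the 30 tested transferase and peroxidase genes, grouped by class, filled where the edgeR adjusted p was under 0.05. The points of the alpha, pi, theta, kappa and microsomal classes lie right of 0 and are filled, 6 of 7 mu genes do so, and the omega and zeta genes are open.

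The mu genes form a cluster on chromosome 3, in the order Gstm5, Gstm7, Gstm6, Gstm3, Gstm2, Gstm1 and Gstm4, from 107895854 to 108045179. Of these 7 genes 6 rose. Gstm5 had 18.2 ± 4.46 CPM in A485 and 0.870 ± 0.792 CPM in control, and Gstm2 had 23.59 ± 14.2 CPM in A485 and 2.22 ± 0.131 CPM in control (SD, n = 4 per group). Gstm7, which lies between Gstm5 and Gstm6, had 3.28 ± 1.36 CPM in A485 and 3.26 ± 1.90 CPM in control (SD, n = 4 per group) and a log2 fold change of 0.01 ± 0.44 (SE), with an adjusted p of 0.988 by edgeR. Gstm6, Gstm3 and Gstm4 had log2 fold changes of 1.53, 2.32 and 2.83. Gstm3 lost its call without A485 replicates 3 and 4 (1.60, adjusted p = 0.0636), where Gstm2 had 2.71 and Gstm4 1.96, and Gstm5 had 5.20 without control replicate 1, against 4.38 with all libraries.

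All 4 alpha genes rose, and Gsta4 had the smallest log2 fold change of the 4. Gsta1, an enzyme with peroxidase activity toward lipid hydroperoxides, had 57.9, 56.7, 193 and 197 CPM in A485 libraries 1 to 4 and 20.0, 14.3, 8.67 and 12.8 CPM in control libraries 1 to 4. A485 libraries 3 and 4 were the highest, as for Gsta4, Mgst3 and Gsta3. The log2 fold change of Gsta1 was 3.18 ± 0.49 (SE), against 2.04 without A485 replicates 3 and 4 and 3.79 without A485 replicates 1 and 2. Of its 50-base stretches 89.7% were shared with other genes, so its count is uncertain. Gsta2 and Gsta3 had log2 fold changes of 3.39 ± 0.76 and 1.86 ± 0.41 (SE). That of Gsta2 was 2.57 without A485 replicate 2, and that of Gsta3 was 0.92 without A485 replicates 3 and 4.

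In the remaining classes the theta genes Gstt1, Gstt2 and Gstt3 rose, by 4.91 ± 0.62, 3.13 ± 0.20 and 4.23 ± 0.58 (SE) on the log2 scale, the last being 5.26 without control replicate 2. Gstt2 had 30.8 ± 6.99 CPM in A485 and 3.53 ± 0.331 CPM in control (SD, n = 4 per group). Gstt1 had 3.15 ± 1.79 CPM in A485 and 0.101 ± 0.0599 CPM in control, and Gstt3 10.1 ± 2.40 CPM in A485 and 0.534 ± 0.560 CPM in control. Gstp3, Gstk1, of the mitochondrial and peroxisomal kappa class, and Mgst2 rose, by 2.67 ± 0.30, 2.75 ± 0.57 and 2.28 ± 0.60 (SE) on the log2 scale, and Mgst2 lost its call without A485 replicates 3 and 4 (1.33, adjusted p = 0.112). Gsto2, Gstcd and Gstz1, the maleylacetoacetate isomerase of tyrosine breakdown, had log2 fold changes of 0.35 ± 0.55, -0.03 ± 0.27 and 0.44 ± 0.19 (SE) and did not pass (edgeR adjusted p of 0.618, 0.944 and 0.0732). Gstz1 passed under total-count scaling (0.74, adjusted p = 0.0168) and without A485 replicate 1 (0.55, adjusted p = 0.0247). Gstt4 and Hpgds had means under 1 CPM in both groups and were not tested. Of the relatives of the microsomal enzymes, Ptges, a prostaglandin E synthase gene, had a log2 fold change of 0.71 ± 0.28 (SE), with an adjusted p of 0.0529 by edgeR. Ptges passed without A485 replicate 2 or 3, with total-count scaling and in DESeq2 (adjusted p of 0.00804 to 0.036). Ltc4s and Alox5ap were not tested.

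The summed TPM of the 25 transferase genes was 1783, 3062, 2961 and 3531 in A485 libraries 1 to 4 and 1110, 1108, 909 and 909 in control libraries 1 to 4. The pi class made up 61.6% ± 9.15 of it in A485 and 41.8% ± 8.13 in control, and the omega class 14.1% ± 3.54 in A485 and 45.6% ± 9.29 in control (SD, n = 4 per group). The mu class made up 7.08% ± 1.74 in A485 and 1.53% ± 0.490 in control, and the alpha class 12.6% ± 5.67 in A485 and 8.01% ± 1.41 in control. The microsomal class made up 1.80% ± 0.542 in A485 and 1.17% ± 0.392 in control. The libraries of the groups did not overlap for omega, mu and pi, nor for the smaller theta, kappa and zeta shares, and overlapped for alpha and the microsomal class. A share also falls when other classes rise. The omega TPM itself was 391 ± 125 in A485 and 461 ± 119 in control (SD, n = 4 per group). Summed TPM also carries the shift between groups, a median of 0.40 on the log2 scale over all genes.

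**Figure D3:**
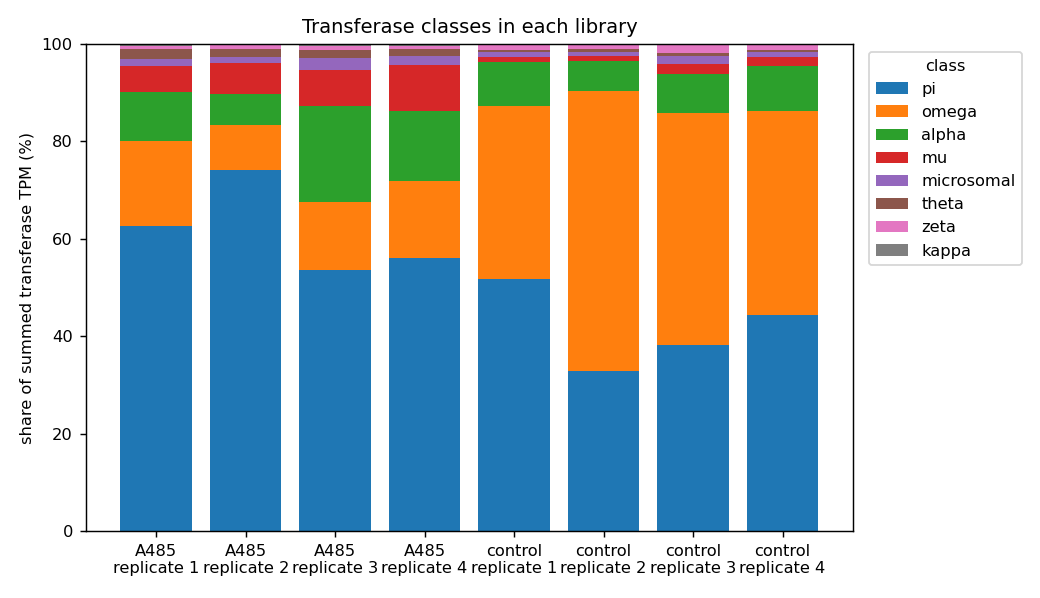
Share of the summed transferase TPM taken by each class (vertical axis, percent) in each A485 and control library (bars). The omega share is 9.21% to 17.4% in A485 and 35.5% to 57.4% in control, and the pi share 53.6% to 74.1% in A485 and 33.0% to 51.8% in control.

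Among the other peroxidases, Gpx3, the secreted plasma enzyme, had 128, 205, 280.3 and 415 CPM in A485 libraries 1 to 4 and 9.73, 2.12, 29.9 and 5.29 CPM in control libraries 1 to 4. The groups did not overlap, and control replicate 3 was the highest control. Its log2 fold change was 4.45 ± 0.82 (SE), with an adjusted p of 0.00216 by edgeR, 5.43 without control replicate 3 and 3.82 without A485 replicates 3 and 4. Gpx2, the epithelial enzyme first known from the gut, had 131 ± 32.0 CPM in A485 and 35.7 ± 10.6 CPM in control (SD, n = 4 per group). Gpx7 and Gpx8, enzymes of the endoplasmic reticulum, rose, by 2.203 ± 0.21 and 5.43 ± 0.77 (SE) on the log2 scale, the second at 5.41 ± 2.66 CPM in A485 and 0.118 ± 0.138 CPM in control, and at 6.11 without control replicate 1. Gpx5, an epididymal enzyme, fell by 2.24 ± 0.71 on the log2 scale (SE), with an adjusted p of 0.0211 by edgeR and group means below 1 CPM. That call was lost without A485 replicate 2 or 3, and without control replicate 3 or 4 (adjusted p of 0.0513 to 0.0745). Gpx6 was not tested.

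Profiles most like those of the members were taken as the smallest root mean square difference in centred log2 CPM over the 8 libraries, which form 2 groups, among genes with an average log2 CPM of at least 3. For Gstm1 the nearest were Tspo (0.36), Prph (0.38), Phlda2 (0.54), Pgm2 (0.58) and Rhox9 (0.58). For Gsta4, the risen member with the smallest change, they were G6pc3 (0.12), Fam57a (0.13), Pex5 (0.16), Scyl2 (0.17) and Psme1 (0.17).

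Genes around these enzymes were described by lists, whose counts stand against 29.7% higher and 25% lower over all genes. In the lists too, genes low in 1 group could pass the filter on low counts through the other alone, which favours calls in that direction. For synthesis and cysteine supply 4 of 8 rose and 1 fell. Gclm and Gclc, the subunits of glutamate-cysteine ligase, the first and limiting step of glutathione synthesis, rose, with Gclm at 245 ± 71.2 CPM in A485 and 36.1 ± 8.98 CPM in control and Gclc at 3.87 ± 1.01 CPM in A485 and 1.00 ± 0.239 CPM in control (SD, n = 4 per group). Slc7a11, the cystine-glutamate exchanger, and Slc1a4, a neutral amino acid transporter, rose, by 2.46 ± 0.43 and 5.81 ± 0.70 (SE) on the log2 scale, the second being 6.395 without control replicate 1. Slc1a4 had 0 CPM in control replicate 2 and 0.250 CPM in control replicate 3. Its control libraries would not have passed the filter on their own. Cbs, of the transsulfuration pathway, fell by 0.74 ± 0.22 on the log2 scale (SE). The Cbs call was lost under total-count scaling (adjusted p = 0.0939), without A485 replicates 3 and 4 (adjusted p = 0.0941) and without control replicate 3 (adjusted p = 0.051), so that 0 of the list then fell, and 2 fell without A485 replicate 1, without A485 replicate 3 or without A485 replicates 1 and 2.

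In glutathione breakdown 4 of 9 rose and 2 fell. Lap3, a leucine aminopeptidase gene, fell to 43.7 ± 7.51 CPM in A485, against 169 ± 5.57 CPM in control (SD, n = 4 per group), and Ggct, a gamma-glutamylcyclotransferase gene, fell by 0.98 ± 0.29 on the log2 scale (SE), a call lost under total-count scaling (adjusted p of 0.051 by edgeR). The gamma-glutamyltransferase gene Ggt5 rose, by 5.30 ± 0.99 (SE) on the log2 scale, 4.66 without A485 replicate 3 and 6.53 without control replicate 3. Ggt5 had 1.91 ± 1.52 CPM in A485 and 0.0423 ± 0.0589 CPM in control (SD, n = 4 per group). Its A485 libraries alone brought it past the filter on low counts. Anpep, Ggt1 and Ggt6 rose with log2 fold changes of 1.97, 1.22 and 1.19. Anpep lost its call without A485 replicates 3 and 4 (1.05, adjusted p = 0.181). Without A485 replicate 4 the calls of Ggt1 and Ggt6 were lost (0.81 and 0.82, adjusted p of 0.0666 and 0.128), and Ggt6 also without A485 replicate 2 or control replicate 2, 3 or 4. Under total-count scaling 1 of the list fell, and without A485 replicates 3 and 4 the list had 1 higher and 1 lower.

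Among glutaredoxins, glyoxalases and exporters of conjugates 9 of 13 rose and 1 fell. Glrx, encoding glutaredoxin 1, had 157 ± 80.2 CPM in A485 and 32.6 ± 5.70 CPM in control, and the mitochondrial iron-sulfur cluster gene Glrx5 had 165 ± 16.5 CPM in A485 and 65.4 ± 12.7 CPM in control (SD, n = 4 per group). Glrx had a log2 fold change of 2.27, or 1.66 without A485 replicates 3 and 4. In that setting Glrx2, Abcc2 and Abcc5 lost their higher calls (edgeR adjusted p of 0.0966, 0.0796 and 0.268). The Abcc5 call was also lost without A485 replicate 3 or 4 or control replicate 1, 3 or 4 (edgeR adjusted p of 0.0543 to 0.0713). Esd, an S-formylglutathione hydrolase gene, and Hagh, glyoxalase 2, rose, by 2.03 ± 0.25 and 1.25 ± 0.22 (SE) on the log2 scale. Glrx3 fell by 0.94 ± 0.12 on the log2 scale (SE), to 299 ± 26.0 CPM in A485, against 572 ± 26.8 CPM in control.

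Of genes that supply NADPH, which glutathione reductase consumes, 8 of 15 rose and 2 fell. G6pdx, the entry enzyme of the pentose phosphate pathway, had 287 ± 99.4 CPM in A485 and 39.7 ± 9.41 CPM in control, and Me1, malic enzyme, had 113 ± 42.5 CPM in A485 and 27.6 ± 7.53 CPM in control (SD, n = 4 per group). Pgls and Idh2 rose, by 1.49 ± 0.24 and 0.59 ± 0.14 (SE) on the log2 scale, and Mthfd1 and Idh1 fell by 1.22 ± 0.18 and 0.80 ± 0.22 on the log2 scale (SE). The list had 5 higher without control replicate 1 or 2, 4 lower without A485 replicate 3, and 1 lower with total-count scaling, where Idh1 lost its call (adjusted p = 0.113), or without A485 replicates 1 and 2 (adjusted p = 0.0557).

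For the synthesis of selenoproteins, the group to which GPX1 and GPX4 belong, 0 of 10 rose and 4 fell. Sephs1, Pstk, Secisbp2 and Sepsecs fell, with log2 fold changes of -0.70, -0.64, -0.65 and -0.64. Sephs1 had 69.5 ± 7.28 CPM in A485 and 113 ± 5.47 CPM in control (SD, n = 4 per group). With libraries scaled by total counts, 1 of the list fell and 1 rose. Sepsecs lost its call without A485 replicate 2 or 3 or control replicate 1, 3 or 4 (adjusted p of 0.0536 to 0.086), and Secisbp2 without A485 replicate 2 (adjusted p of 0.0509), so that 2 of the list then fell.

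Of genes of lipid peroxidation, iron handling and ferroptosis 7 of 16 fell and 3 rose. Steap3, an endosomal ferrireductase gene, fell to 11.1 ± 2.16 CPM in A485, against 58.4 ± 9.37 CPM in control, and Lpcat3, which places polyunsaturated fatty acids in phospholipids, fell to 124 ± 20.5 CPM in A485, against 303 ± 24.7 CPM in control (SD, n = 4 per group). Dhodh and Cyb5r1 fell by 1.33 ± 0.16 and 1.45 ± 0.18 on the log2 scale (SE). Fth1, the ferritin heavy chain, had 4288 ± 1259 CPM in A485 and 1806 ± 164 CPM in control, and Slc40a1, the iron exporter ferroportin, had 26.4 ± 18.2 CPM in A485 and 1.11 ± 0.855 CPM in control (SD, n = 4 per group). Por rose, by 0.92 ± 0.22 (SE) on the log2 scale. Slc40a1 had a log2 fold change of 4.56, or 3.40 without A485 replicates 3 and 4 and 5.17 without A485 replicates 1 and 2. The number of the list that rose was 5 without any 1 control replicate and without a filter on low counts, and 6 with total-count scaling, without A485 replicate 1 and without A485 replicates 1 and 2.

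Among regulators of the NRF2 pathway 4 of 10 rose and 1 fell. Nfe2l2, the gene of NRF2, had 69.6 ± 20.6 CPM in A485 and 41.3 ± 4.48 CPM in control, and Bach1, a repressor at the same elements, had 7.58 ± 1.62 CPM in A485 and 15.3 ± 0.529 CPM in control (SD, n = 4 per group). Nqo1, Sqstm1 and Cul3 rose, by 3.17 ± 0.38, 1.30 ± 0.18 and 1.44 ± 0.21 (SE) on the log2 scale, and Keap1, the inhibitor of NRF2, stood at -0.11 ± 0.18 (SE), with an adjusted p of 0.634 by edgeR. Nfe2l2 lost its call without A485 replicates 3 and 4 (0.34, adjusted p = 0.0875), and 2 of the list fell without A485 replicate 2. Ep300 and Crebbp, the genes of the inhibited proteins, had log2 fold changes of 1.17 and 0.75.

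**Figure D4:**
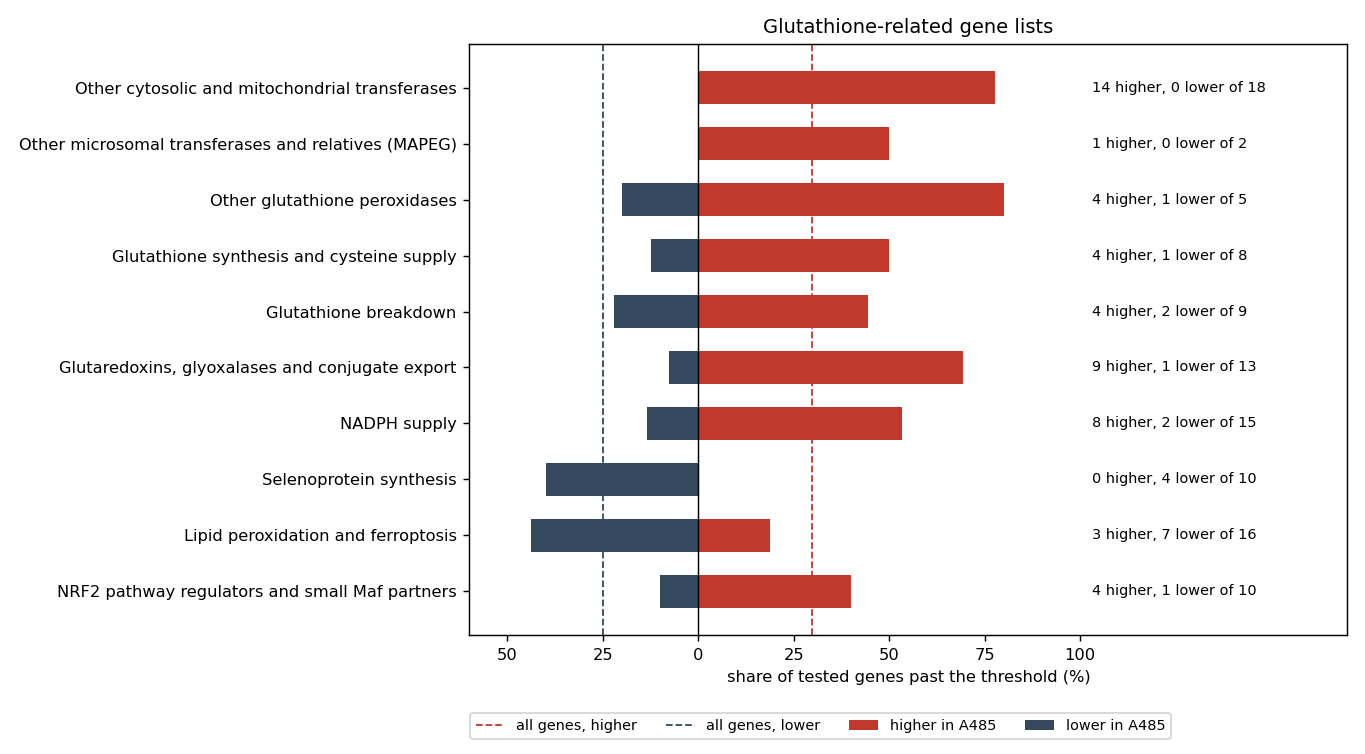
Share of the tested genes of each list that were higher (right) or lower (left) in A485 at an edgeR adjusted p under 0.05 (horizontal axis, percent), with the shares over all 12936 genes as dashed lines at 29.7% and 25%. The lists of transferases, peroxidases and glutaredoxins extend farthest to the right, and those of selenoprotein synthesis and lipid peroxidation farthest to the left.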

How the data were processed

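Polyadenylated RNA of mouse morulae was measured in 4 A485 and 4 control pools. Per the submitters' processing notes, the build was GRCm38.p6 and the tools were RSEM 1.2.28, HISAT2 2.2.1 and DESeq2 1.40.2. Per the file headers, the authors deposited for each gene and library an estimated count, a TPM, an FPKM and a normalized count (a scaled signal); 18.2% of the estimated counts were not whole. The authors' deposited table also gives their log2 fold change, p-value and q-value. No source used here gives strandedness.

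Estimated counts were rounded for the test of edgeR 4.0.16 under R 4.3.3 (filterByExpr, TMM, robust quasi-likelihood, no covariate); p-values were adjusted over 12936 genes by Benjamini-Hochberg and called under 0.05. The SE of a log2 fold change is its size divided by the square root of F. CPM uses TMM-scaled library sizes, and log2 CPM a prior count of 2. TPM was used to compare genes within a library, through shares, ratios and ranks that were then set beside each other between groups. Summed transferase TPM is given without a test. The code was tested on simulated data. Replicates differed beyond sampling noise in every pair, with chi-square over degrees of freedom of 57.8 to 199 in A485 and 18.8 to 33.1 in control. Within A485, replicates 1 and 2 (64.2) and replicates 3 and 4 (57.8) were closest, against 116 to 199 for the other pairs. The 4 A485 libraries thus fell into 2 pairs, and no label explains this.

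The members, lists and rules were chosen with earlier results of these data known. The text names all members, per list and direction the called genes of smallest p, at most 4, and all transferase and peroxidase genes. Keap1, Glrx2, Abcc2 and Abcc5 were added after their values were seen. Of 117 listed genes 115 were found by symbol. Alternatives were DESeq2 1.42.0, RLE factors, total-count scaling, no filter, 5 CPM in 4 libraries, a replicate block and leaving out each library. Leaving out A485 replicates 1 and 2, or 3 and 4, was added after seeing the data. Transcript stretches came from GENCODE M21 and gene coordinates from NCBI's table for the same build.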

Additional observations from a re-analysis of the deposited data

Results flagged for a closer look

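In each group of 4 libraries, a value was singled out when its gap to the nearest other library, as a share of the group's range, was above Dixon's 95% critical value, for the CPM of the 10 members and the ratio of Gpx4 to Gpx1. Of 22 groups examined 3 held such a library, and chance gives about 5% of groups. Gsr had 196 CPM in A485 replicate 4, above the other A485 libraries. Without that library its log2 fold change was 1.00, against 1.202 with all libraries, and it still passed (edgeR adjusted p = 0.00056). Gsto1 had 687 CPM in control replicate 2, and its log2 fold change was -0.33 without that library, against -0.55 with all. Mgst1 had 0.0417 CPM in control replicate 3, which is 1 count, whereas the other control libraries had 0.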

How the results depend on the processing

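Leaving out 1 library at a time gave 3509 to 4165 genes higher and 2785 to 3520 lower, 5 to 7 members higher and 0 to 1 lower (Gsto1, without A485 replicate 4), and 48 to 56 list genes higher and 16 to 22 lower, against 51 and 19 with all libraries. Members came to 7 without a filter and without control replicate 1, where Mgst1 was tested and Gsta4 kept its call, and to 5 without A485 replicate 3, where Gsta4 lost its call and Mgst1 was not tested. Without A485 replicate 4 or control replicate 2, 3 or 4 the count was 6, with Mgst1 called and Gsta4 not. Mgst1 had 86 summed counts in A485 and 1 in control, and under a filter its A485 libraries alone brought it into the test. Its call is therefore no sign that the number of risen members is stable. With at least 5 CPM in 4 libraries, which tests 8194 genes, 2526 genes were higher. Without A485 replicates 3 and 4, 1 member was lower, and 40 list genes were higher and 17 lower. Without A485 replicates 1 and 2, 57 list genes were higher and 22 lower. Gstm1, Gstp1, Mgst3, Gpx4 and Gsr passed under all 16 alternatives, with lowest log2 fold changes of 4.21, 1.76, 1.13, 0.59 and 1.00. Gpx1 and Gss passed under none, with log2 fold changes from -0.17 to 0.33 and from -0.19 to 0.45. The log2 difference in the ratio of Gpx4 to Gpx1 was 0.72 to 0.84 when libraries were left out. Class shares of transferase TPM ranged, without 1 library, from 10.3% to 14.7% for alpha in A485 and 7.62% to 8.66% in control, from 6.30% to 7.66% for mu in A485 and 1.35% to 1.69% in control, from 57.5% to 64.3% for pi in A485 and 38.5% to 44.8% in control, from 13.0% to 15.7% for omega in A485 and 41.7% to 49.0% in control, and from 1.56% to 1.98% for the microsomal class in A485 and 0.988% to 1.30% in control. With CPM, which is not per length, the shares were 10.6% and 2.07% for mu, 49.6% and 29.5% for pi, and 20.1% and 56.6% for omega, each in A485 and in control.

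Replicate numbers are shared by both groups. The deviations of same-numbered libraries correlated by 0.0052 to 0.104, and those of the other pairs by -0.127 to 0.143. Whether same-numbered pools share a litter or day is not stated, and these correlations cannot decide it. With the replicate block 3508 genes were higher and 3163 lower, 6 members were higher and 0 lower, and 50 list genes were higher and 17 lower. Anpep, Ggt6, Gpx5 and Sepsecs then lost their calls (edgeR adjusted p of 0.0513 to 0.101). Depth limits what can be said of Mgst1, the only member with a mean under 1 CPM in both groups.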
